A study of Mus musculus with 8 samples.

Results

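The 35 genes described here are made by or mark the matrix-producing cells of the liver: collagens, proteoglycans, elastic fibre proteins, crosslinking enzymes, proteases with their inhibitors, contractile proteins, and the receptors and storage genes of hepatic stellate cells. They were taken as a list of gene symbols, and all 35 were found on the array among the 22220 genes tested. The samples were livers of 8 wk old ICR scid mice, a strain that lacks mature T and B cells, hybridised in pairs to 8 two-colour Agilent 4x44k v1 mouse arrays. Untreated males (10 mice) were set over untreated females (10 mice). Males given Adeno-Cux2 were set over males given Adeno-CMV, killed 5 days later (12 and 13 mice) or 3 days later (11 and 11 mice). Females labelled Adeno-Cux2 were set over females labelled Adeno-CMV at 5 days (8 and 7 mice). Cux2 is a homeobox transcription factor delivered here by the adenovirus Adeno-Cux2, with Adeno-CMV as control virus, so that every treated group, controls included, had received a virus. The cells in which either virus expresses its insert are not given in the sources used here. The 4 comparisons share no pool of mice.

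Hepatic stellate cells lie between hepatocytes and sinusoidal endothelium and store vitamin A as retinyl esters. When the liver is injured they lose these stores, take on smooth muscle actin, divide in response to platelet-derived growth factor and lay down fibrillar collagen in response to transforming growth factor beta. Portal fibroblasts, vascular smooth muscle, endothelium and macrophages also make some of the proteins described here, so most of these genes do not belong to a single cell type. In RNA from whole liver, fewer cells of a type and less RNA per cell cannot be told apart.

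Each comparison had 2 arrays, with separate pools of 3 to 7 mice and the dyes reversed; array 1 carried the numerator pool in red and array 2 in green. Values are log2 ratios after background correction and loess normalisation, positive where the numerator (male, or Adeno-Cux2) was higher, and a pair such as 1.94/1.80 gives array 1 and then array 2. Values after ± are standard errors of a single limma model of all 8 arrays, n is 2 arrays per comparison, and a gene is called at an adjusted p under 0.05 over all 22220 genes. These errors measure the spread between pools and not between mice. The median spot signal per array lay between 343 and 442 in the green channel and between 430 and 512 in the red one. All 35 genes were well above background in both channels on all 8 arrays, and 0 were saturated. A log2 ratio of 1 is a 2-fold difference.

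Cux2 itself was read by 2 probes. In males given the virus the brighter probe stood at 0.61/0.60 on the arrays of day 5 and 0.39/0.58 on those of day 3, and the other at 0.28/0.34 and 0.39/0.48. In the female pools labelled Adeno-Cux2 it was lower than in those labelled Adeno-CMV, at −0.58/−0.65 with the brighter probe and −0.28/−0.38 with the other. The female Cux2 values therefore go against the label, and female results are written as those of pools labelled Adeno-Cux2. In untreated livers Cux2 was lower in males than in females, at −1.74/−2.02 with the brighter probe and −1.36/−1.25 with the other, the largest ratios of the gene in the study. Whether either probe reads the viral copy is not given in the sources used here. Skeletal muscle markers were also low on the female arrays (medians of −1.30 and −2.77 over 10 genes), and their part in the female results was not tested. The quiescent stellate cell markers were present, with 14 of 15 above background in every reading of the 8 arrays; Gfap was above background in 15 of 16.

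Most of the matrix genes were higher with Adeno-Cux2 in males at both times and in the female pools labelled Adeno-Cux2 at day 5. In males at day 5, 32 of 35 were called higher and 0 lower, where 13.9% of all genes tested were called higher and 4.95% lower; their median log2 ratio was 0.74, against 0.0094 for all genes. The female pools labelled Adeno-Cux2 had 31 called higher and 0 lower, where 12.8% and 6.31% of all genes were, with a median of 0.75 against 0.0050. At day 3 in males 26 were called higher and 1 lower, where 23.7% and 20.3% of all genes were, with a median of 0.73 against −0.0024. All 35 genes lay above 0 on both male arrays of day 5, as did 39.9% of all genes. At least 2-fold differences were reached by 11, 11 and 15 genes, where 3.55%, 2.35% and 7.98% of all genes passed that size.

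In untreated livers 1 of the same genes was called higher in males and 8 lower, where 4.94% and 6.15% of all genes were. Their median log2 ratio was −0.18, against −0.0070 for all genes, 29 of the 35 had a fitted value below 0, and none reached 2-fold, as 1.59% of all genes did. The count of calls leans on single arrays. Without array 1 of male day 5 the count there was 12 and without its array 2 it was 7, where calls in either direction fell to 5.24% and 4.7% of all genes. Without array 1 of female day 5 it was 15, with 6.05% of all genes called. Without array 1 of the untreated comparison none was called lower or higher, with 2.41% of all genes called; without either male day 5 array 3 were called lower, and without either male day 3 array 5. The single gene called lower at day 3 was lost without any one male array of either day. The median moved far less, and under every alternative run the medians of the 3 treated comparisons stayed above 0.

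**Figure D1:**
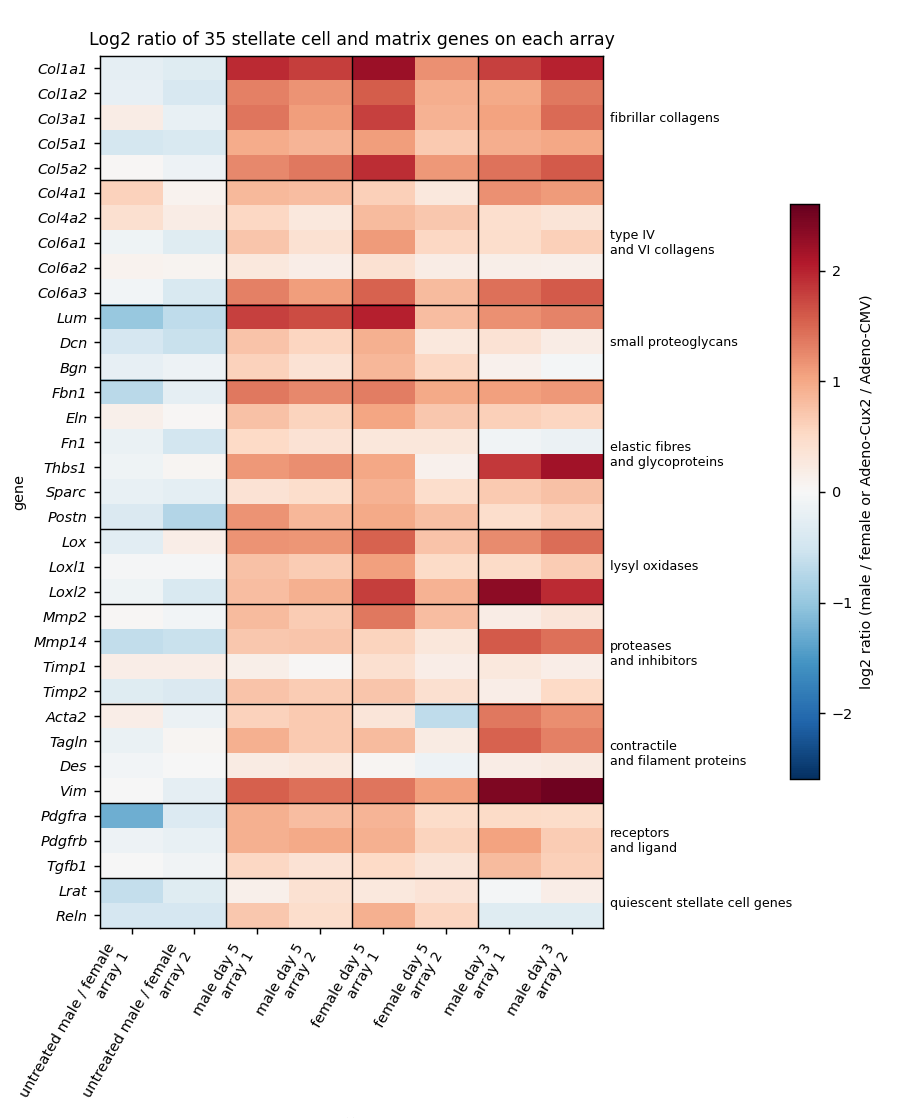
Log2 ratio of each of the 35 genes (rows, grouped by role) on each of the 8 arrays (columns), from blue (lower in the numerator) to red (higher). The columns of the treated comparisons are red for nearly all genes, with Reln below 0 on both male day 3 arrays and Acta2 at −0.65 on array 2 of female day 5.

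Of the 35 genes, 23 were called higher in all 3 treated comparisons, as were 8.54% of all genes. Bgn, Dcn, Fn1, Lrat and Mmp2 were called higher at day 5 in males and in the female pools labelled Adeno-Cux2 but not at day 3. Acta2 and Thbs1 were called higher in males at both times and not in females, and Reln was higher at day 5 in both sexes and lower at day 3. Col6a2 was called in females alone, Timp1 in females and at day 3, Pdgfra in males at day 5 alone, and Des in none.

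The fibrillar collagens form the tensile fibres of scar, and all 5 measured chains rose in each treated comparison. Col1a1, the main chain of type I collagen, read 1.94/1.80 on the arrays of male day 5, 2.23/1.20 on those of female day 5 and 1.77/2.01 on those of male day 3. The untreated arrays, which set males over females and not Adeno-Cux2 over Adeno-CMV, read −0.23/−0.32. The fitted values of the treated comparisons were 1.87 ± 0.19 (3.65-fold, adjusted p = 0.000993), 1.71 ± 0.19 (3.28-fold, 0.00185) and 1.89 ± 0.19 (3.71-fold, 0.000356), in that order. Its probe lies at chr11:94767851-94767910 on mm8, and a dimmer probe at chr11:94766828-94766887 gave 1.12, 1.22 and 1.05. Both probes had the same direction, and the dimmer one gave the smaller value in each.

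Col1a2, the partner chain of type I collagen, read 1.30/1.17 at day 5 in males, 1.57/0.95 in females and 0.99/1.36 at day 3. Its ratios were 2.36-fold, 2.4-fold and 2.26-fold (adjusted p = 0.00187, 0.00223 and 0.000915), so that the 3 lay within a standard error of each other. The male day 5 call was lost without either of its arrays. The 250 bases before the Col1a2 start (chr6:4505368-4505617, plus strand, GRCm38.p6, from RefSeq, 5′ to 3′) are printed because this gene rose with Col1a1 and has a window in the RefSeq promoter table. Capitals mark CCAAT, the letters bound by NF-Y, and GGGCGG, those bound by Sp1, on either strand.
Col1a2: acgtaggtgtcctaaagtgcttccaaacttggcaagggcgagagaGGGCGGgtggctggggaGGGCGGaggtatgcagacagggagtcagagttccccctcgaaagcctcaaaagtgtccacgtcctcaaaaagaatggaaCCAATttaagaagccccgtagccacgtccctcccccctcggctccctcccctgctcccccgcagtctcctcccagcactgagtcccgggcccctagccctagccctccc

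Col3a1, the chain of type III collagen that is laid down early in repair, read 1.40/1.09, 1.79/0.90 and 1.04/1.47 on the arrays of male day 5, female day 5 and male day 3. Its fitted values of 1.24 ± 0.19, 1.34 ± 0.19 and 1.26 ± 0.19 were all called (adjusted p = 0.00528, 0.00443 and 0.00208). A further probe of Col3a1, near the lowest signals measured, gave −0.02, 0.08 and 0.04, and with it no comparison called the gene. Col5a2 and Col5a1 encode chains of type V collagen, which starts fibrils of type I. Col5a2 read 1.24/1.37, 1.92/1.12 and 1.41/1.60, and its 2.87-fold in females was second only to Col1a1 there (adjusted p = 0.0016). Col5a1 read 0.97/0.88, 1.09/0.69 and 0.95/1.01 (adjusted p = 0.000987, 0.00157 and 0.000295). It also belongs to the 8 genes called lower in males without treatment, with −0.46/−0.39 (1.34-fold lower, adjusted p = 0.0374), a call lost in 12 of 20 alternatives. Like Col3a1, Col5a1 has a dim further probe without a difference (−0.14, 0.03 and −0.13), which ended every call, the untreated one included.

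**Figure D2:**
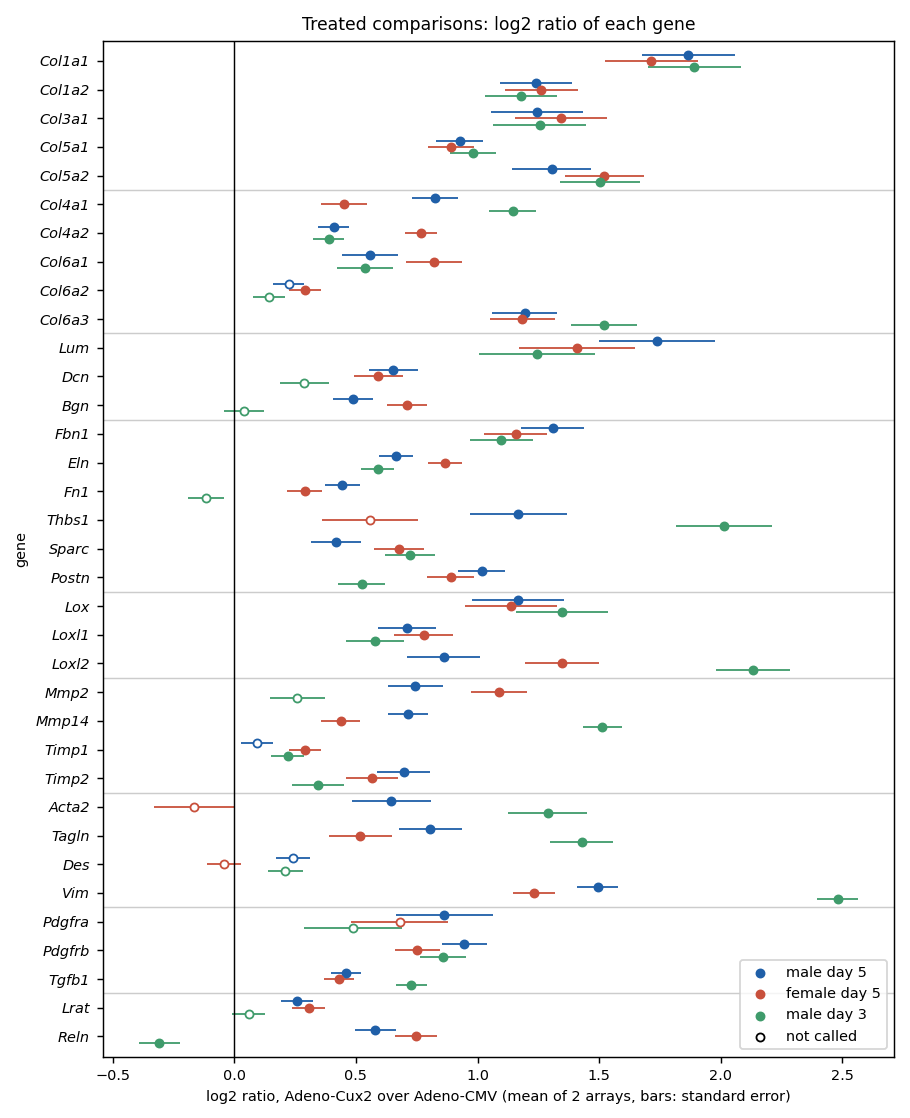
Log2 ratio of Adeno-Cux2 over Adeno-CMV for each gene (mean of 2 arrays, bars are standard errors) in males at day 5, females at day 5 and males at day 3, with open symbols where the gene was not called. The fibrillar collagens at the top overlap in all 3 comparisons, while Vim, Loxl2, Thbs1, Mmp14 and Acta2 have their day 3 symbol to the right of both day 5 symbols.

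Type IV collagen is the sheet of basement membranes and type VI forms beaded filaments around cells. Of these 5 chains, 4 rose in males at day 5, 5 in females and 4 in males at day 3. Col4a1 read 0.85/0.80 in male day 5, 0.63/0.27 in female day 5 and 1.18/1.10 at day 3 (0.82 ± 0.10, 0.45 ± 0.10 and 1.14 ± 0.10; adjusted p = 0.0016, 0.0194 and 0.000159). Col4a2, its partner in the same triple helix, read 0.54/0.28, 0.83/0.70 and 0.44/0.34 (0.41 ± 0.06, 0.77 ± 0.06 and 0.39 ± 0.06; adjusted p = 0.00577, 0.000704 and 0.00294). The 2 genes face away from a shared start region on chromosome 8, with starts 11312826 (Col4a1, minus strand) and 11312805 (Col4a2, plus strand) in RefSeq on GRCm38.p6. In these data their order turned: Col4a1 had the higher ratio in males at both times and Col4a2 in females. Further probes gave closer values in females, with 0.67 for Col4a1 and 0.70 for Col4a2. Col4a2 was the only gene called higher in untreated males (0.41/0.20, adjusted p = 0.0313), and that call was lost in 13 of 20 alternatives.

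Col6a3, the longest chain of type VI collagen, read 1.30/1.09, 1.54/0.83 and 1.44/1.60 and rose 2.29-fold, 2.27-fold and 2.87-fold (adjusted p = 0.00147, 0.00198 and 0.000203). Col6a1 stood lower, at 0.72/0.40, 1.11/0.53 and 0.46/0.61, and was called in each (adjusted p = 0.0181, 0.00443 and 0.00954). Col6a2 was called in females alone, at 0.39/0.19 (adjusted p = 0.0246), and read 0.27/0.17 and 0.16/0.12 in males. Its female call was lost in 8 of 19 alternatives. The 3 chains assemble into one molecule, and their ratios spanned 0.22 to 1.19 in males at day 5. The lowest is that of Col6a2, whose probe is dim (mean log2 signal 6.84 over the arrays), which limits what its ratio can show.

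The small leucine-rich proteoglycans coat collagen fibrils and set their spacing. Lum (lumican) read 1.78/1.70 in male day 5, 2.02/0.80 in female day 5 and 1.20/1.29 at day 3. It was higher by 1.74 ± 0.24 (3.34-fold, adjusted p = 0.00329), 1.41 ± 0.24 (0.00857) and 1.24 ± 0.24 (0.00563). At day 5 in males this was the largest rise after Col1a1, and in untreated livers Lum had the lowest value of the 35, at −0.98/−0.66 without a call (adjusted p = 0.0764). Dcn (decorin), which also binds transforming growth factor beta, read 0.74/0.57 and 0.91/0.27 at day 5 in males and females (adjusted p = 0.00538 and 0.00878). At day 3 it read 0.37/0.20 and was not called (adjusted p = 0.057), and in untreated males it was lower, at −0.44/−0.57 (0.0268). A dim further probe of Dcn gave 0.25 in males and 0.30 in females at day 5, without a call, and −0.52 in untreated males, with one. Bgn (biglycan) was likewise called at day 5 alone, with 0.60/0.38 in male day 5, 0.87/0.55 in female day 5 and 0.12/−0.04 at day 3. The calls of Bgn at day 5 (adjusted p = 0.00785 and 0.00218) stand beside an adjusted p of 0.741 at day 3.

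The elastic fibre proteins and adhesive glycoproteins rose at day 5 in males (6 of 6), in the female pools labelled Adeno-Cux2 (5 of 6) and in males at day 3 (5 of 6). Fbn1 (fibrillin, the scaffold of elastic fibres) read 1.38/1.24, 1.33/0.98 and 1.06/1.13 (2.48-fold, 2.23-fold and 2.14-fold; adjusted p = 0.000843, 0.00186 and 0.000685). Eln (elastin, the rubber-like core of these fibres) read 0.76/0.57, 1.03/0.71 and 0.63/0.55 (adjusted p = 0.00107, 0.000636 and 0.000681). Both kept their calls under every alternative run in all 3 treated comparisons. Sparc, a collagen-binding glycoprotein, read 0.37/0.46, 0.90/0.46 and 0.67/0.77 (adjusted p = 0.0331, 0.00565 and 0.00155). Postn (periostin), a matricellular protein of wound fibroblasts, read 1.16/0.87, 0.99/0.79 and 0.45/0.59 (adjusted p = 0.000716, 0.00166 and 0.00477). A dim further probe of Postn gave −0.01, 0.02 and 0.11, without a call. In untreated males Postn was lower, at −0.38/−0.75 (adjusted p = 0.0158), where the dim probe read 0.01/−0.03.

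Thbs1 was called in males at both times, and Fn1 at day 5 alone. Thbs1 (thrombospondin 1, an activator of latent transforming growth factor beta) read 1.84/2.19 at day 3 and 1.13/1.20 at day 5 in males (4.03-fold and 2.25-fold; adjusted p = 0.000312 and 0.0079). On the female arrays it read 1.01/0.11, which disagree with each other, and it was not called (adjusted p = 0.104). Its 2 dimmer probes gave 0.36 and 0.25 at day 3 and 0.14 and 0.20 at day 5. Fn1 (fibronectin, which hepatocytes also secrete into plasma) read 0.51/0.37 at day 5 in males, 0.29/0.29 in females and −0.08/−0.15 at day 3. Only the day 5 values were called (adjusted p = 0.00703, 0.0366 and, at day 3, 0.252). The female call of Fn1 was lost in 13 of 19 alternatives and turned to −0.06 with its next brightest probe. In untreated males Fn1 was lower, at −0.17/−0.48 (adjusted p = 0.0379), a call lost in 15 of 20 alternatives.

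The lysyl oxidases crosslink collagen and elastin outside the cell, and all 3 rose in each treated comparison. Lox read 1.18/1.16, 1.53/0.74 and 1.23/1.46 (2.24-fold, 2.2-fold and 2.54-fold; adjusted p = 0.00666, 0.00811 and 0.00147). Loxl1, which acts on elastin, read 0.77/0.66, 1.06/0.50 and 0.50/0.65 (adjusted p = 0.00781, 0.00601 and 0.00797). Loxl2 stood out at day 3, where it read 2.33/1.94 (4.38-fold, adjusted p = 8.91e-05), against 0.80/0.92 in males (0.00927) and 1.79/0.91 in females (0.00188) at day 5. Both day 3 arrays lay above all 4 arrays of day 5, and the share of all genes with such an order was not counted. A dimmer probe of Loxl2 gave 2.84 at day 3, 0.94 in males and 1.25 in females at day 5, which is the same order. The size of the Lox values depends on the background step: without background subtraction the male day 5 value was 0.46 and not called.

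Among the proteases, Mmp14 rose in each treated comparison and Mmp2 was called at day 5 alone. Mmp14, a membrane-bound protease that cleaves collagen and activates pro-Mmp2, read 1.60/1.43 at day 3, 0.70/0.72 at day 5 in males and 0.58/0.29 in females (adjusted p = 3.8e-05, 0.00148 and 0.0119). At 2.85-fold it was among the larger rises of day 3, and in untreated males it was lower, at −0.64/−0.57 (1.52-fold lower, adjusted p = 0.00653). A dimmer probe of Mmp14 read 0.06/−0.32 in untreated livers, without a call (adjusted p = 0.339 in a limma fit of all kept probes). In the treated comparisons that probe gave 0.97 at day 3, 0.41 in males and 0.39 in females at day 5. Mmp2, a gelatinase, read 1.38/0.80 on the female arrays, 0.83/0.66 on those of male day 5 and 0.20/0.32 at day 3 (adjusted p = 0.00148, 0.00521 and 0.112, the last not called). Timp2, an inhibitor of metalloproteases that also takes part in the activation of Mmp2, read 0.74/0.65, 0.72/0.42 and 0.17/0.51 (adjusted p = 0.00537, 0.0128 and 0.0393). Its day 3 arrays differ from each other, and that call was lost in 8 of 20 alternatives.

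Timp1, the inhibitor most often followed in liver injury, depends on the probe. The brighter probe, at chrX:20031508-20031566 on mm8, read 0.16/0.03 in male day 5, 0.41/0.17 in female day 5 and 0.27/0.17 at day 3 (adjusted p = 0.416, 0.0263 and 0.036). The dimmer one, at chrX:20029738-20029797, read 1.03/1.10, 1.34/0.60 and 1.84/1.86. With the dimmer probe Timp1 was called in all 3 (adjusted p = 0.00317, 0.00557 and 0.00011 in a fit of all kept probes), with the largest value at day 3. The day 3 call with the brighter probe was lost in 9 of 20 alternatives. Which of the probes reads Timp1 more faithfully was not tested.

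The contractile and filament proteins mark smooth muscle and activated stellate cells. Vim (vimentin, the intermediate filament of mesenchymal cells and leukocytes) had the largest ratio of the 35 genes at day 3. It read 2.43/2.53 there, 1.55/1.43 in males and 1.39/1.07 in females at day 5. These are 5.58-fold, 2.82-fold and 2.35-fold (adjusted p = 1.53e-05, 0.000119 and 0.000429), and the calls held under every alternative run. Tagln (transgelin, an actin-binding protein of smooth muscle) read 1.54/1.32 at day 3, 0.93/0.69 in males and 0.83/0.21 in females at day 5 (adjusted p = 0.000226, 0.00651 and 0.0358). The female call of Tagln was lost in 8 of 19 alternatives, among them without array 1 of female day 5. Des (desmin, the filament of quiescent stellate cells and of muscle) was called in no comparison, with adjusted p of 0.0609 in males at day 5, 0.757 in females and 0.0509 at day 3. Its values were 0.21/0.27, 0.05/−0.14 and 0.19/0.23, from a dim probe (mean log2 signal 6.6 over the arrays), which limits what they can show.

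Acta2 (smooth muscle alpha-actin, the usual mark of an activated stellate cell) read 1.38/1.20 at day 3 (2.44-fold, adjusted p = 0.000934) and 0.60/0.69 in males at day 5 (1.56-fold, 0.0365). On the female arrays it read 0.32/−0.65, on opposite sides of 0, and it was not called (−0.17 ± 0.16, adjusted p = 0.562). The male day 5 call was lost in 11 of 20 alternatives, and with the next brightest probe it read 1.02/0.21. The day 3 rise was called with the 3 brightest of its probes (1.29, 1.36 and 1.09) and held under every alternative run. Of the smooth muscle markers all 7 were called higher at day 3 (median 0.82), where 23.7% of all genes were. At day 5, 2 of 7 were called higher in males and 1 of 7 in females, where 13.9% and 12.8% of all genes were. On the female arrays their medians were 0.47 and −0.43. The part of the smooth muscle markers in the values of Acta2 and Tagln was not tested.

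The windows before the starts of Acta2 (chr19:34255374-34255623, minus strand) and Vim (chr2:13574061-13574310, plus strand) are printed because both genes rose most at day 3 (GRCm38.p6, from RefSeq, 250 bases before the start, 5′ to 3′). In Acta2 the capitals mark CArG-like letters, the serum response factor motif with 1 departure allowed in its 6 middle bases; in Vim they mark CCAAT and TATAAA on either strand.
Acta2: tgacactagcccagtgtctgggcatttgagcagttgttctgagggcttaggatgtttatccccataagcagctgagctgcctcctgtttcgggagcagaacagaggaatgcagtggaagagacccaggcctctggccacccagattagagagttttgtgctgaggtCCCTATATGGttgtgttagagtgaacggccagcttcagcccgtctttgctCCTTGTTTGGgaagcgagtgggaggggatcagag
Vim: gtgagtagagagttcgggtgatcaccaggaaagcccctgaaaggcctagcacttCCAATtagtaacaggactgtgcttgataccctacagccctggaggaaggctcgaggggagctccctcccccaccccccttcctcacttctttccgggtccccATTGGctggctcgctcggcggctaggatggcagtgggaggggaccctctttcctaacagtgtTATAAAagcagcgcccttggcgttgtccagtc

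The RefSeq promoter table has a window for 22 of the 35 genes, and only its 250 bases before the start were searched. The strict CArG box was in 0 of the 22, where 1.62% of 27025 genes had it, and with 1 departure in 5 (22.7%, against 9.78%). The 5 were Acta2, Col1a2, Col6a3, Lrat and Mmp14. CCAAT was in 8 (36.4%, against 37.5%), TATAAA in 3 (13.6%, against 14.3%) and GGGCGG in 13 (59.1%, against 35.4%). TGANTCA, the letters bound by AP-1, was in 1 (4.55%, against 7.82%), Col6a1. ATCGAT, the letters bound by Cux proteins, was in 0, as in 0.836% of all genes. All were sought on both strands, and a match is a run of letters, not a site.

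Of the receptors and the ligand, Pdgfrb and Tgfb1 rose in each treated comparison. Pdgfrb, the receptor by which stellate cells answer platelet-derived growth factor, read 0.92/0.98, 0.93/0.58 and 1.05/0.67 (1.93-fold, 1.68-fold and 1.81-fold; adjusted p = 0.000843, 0.00279 and 0.000485). Tgfb1, the cytokine that drives collagen synthesis, read 0.54/0.37, 0.53/0.34 and 0.83/0.62 (adjusted p = 0.0032, 0.00466 and 0.000175). Pdgfra, the receptor of portal and other fibroblasts, read 0.91/0.81 in males at day 5 and was called there (adjusted p = 0.0268). It read 0.88/0.48 in females and 0.49/0.48 at day 3 without a call (0.0602 and 0.0923). In untreated males it was lower, at −1.27/−0.36, where array 1 lies far below array 2 (adjusted p = 0.0491, lost in 11 of 20 alternatives). A dim further probe of Pdgfra gave 0.03 in males at day 5 and −0.14 in untreated livers, without a call.

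The 2 genes of the quiescent stellate cell rose at day 5; at day 3 Lrat was not called and Reln was called lower. Lrat, the enzyme that makes retinyl esters, read 0.13/0.39 in males and 0.27/0.35 in females at day 5 (1.2-fold and 1.24-fold; adjusted p = 0.0399 and 0.0222), and −0.05/0.17 at day 3 (0.523). Its day 5 calls were lost in 9 of 20 and 9 of 19 alternatives. Reln (reelin, a secreted glycoprotein made in the liver by stellate cells) read 0.70/0.46 and 0.93/0.57 at day 5 in males and females (adjusted p = 0.00445 and 0.002). At day 3 it read −0.31/−0.31, the only call lower of the 35 (1.24-fold lower, adjusted p = 0.0253), and this call was lost in 6 of 20 alternatives. For Reln both arrays of day 3 lay below 0 and all 4 of day 5 above it. The share of all genes with such an order was not counted. Both genes were lower in untreated males, Lrat at −0.62/−0.32 and Reln at −0.44/−0.43 (adjusted p = 0.00831 and 0.0251).

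The window before the Reln start (chr5:22344706-22344955, minus strand, GRCm38.p6, from RefSeq, 250 bases, 5′ to 3′) is printed because Reln was the only gene called in opposite directions at the 2 times. Capitals mark GGGCGG on either strand.
Reln: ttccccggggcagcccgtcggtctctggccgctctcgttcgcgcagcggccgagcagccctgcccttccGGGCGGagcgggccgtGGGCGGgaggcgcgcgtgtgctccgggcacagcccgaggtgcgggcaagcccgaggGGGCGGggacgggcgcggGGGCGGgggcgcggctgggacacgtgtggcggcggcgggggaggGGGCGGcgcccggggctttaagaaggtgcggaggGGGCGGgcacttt

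Other genes of the quiescent state, on a list of 15 that holds Lrat, Reln and Des, were divided. At day 3, 4 were called higher and 6 lower, where 23.7% and 20.3% of all genes were. At day 5 in males 5 were higher and 0 lower, where 13.9% and 4.95% of all genes were. In females 8 were higher and 0 lower, where 12.8% and 6.31% of all genes were. Colec10, a collectin made by stellate cells, stood lowest at day 3, at −1.51/−1.54, against 0.22/0.24 in males and 0.19/0.44 in females at day 5, where it was not called. Hgf, a growth factor for hepatocytes, was higher in all 3 (1.26 ± 0.14, 1.01 ± 0.14 and 1.29 ± 0.14). In untreated males 5 of the 15 were lower, as were 6.15% of all genes.

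The response at day 5 was set against that at day 3 in males as a contrast of the model. Of the 35 genes 2 were called higher at day 5 and 3 lower, where 8.1% and 4.82% of all genes were, and the median difference was 0.02. Reln was higher at day 5 by 0.89 ± 0.12 (adjusted p = 0.00777) and Fn1 by 0.56 ± 0.10 (0.0186). Loxl2 stood lower at day 5, at −1.27 ± 0.21 (adjusted p = 0.0139), as did Vim at −0.99 ± 0.12 (0.00592) and Mmp14 at −0.80 ± 0.11 (0.00885). For Loxl2, Vim and Mmp14 both day 3 arrays lay above both male day 5 arrays, and for Reln and Fn1 both lay below. These are the genes that the contrast called, and the share of all genes with such an order was not counted. In all, 13 of the 35 genes had an unadjusted p under 0.05 from limma, and the share of all genes under it was not counted. Thbs1 (−0.84 ± 0.28, adjusted p = 0.101), Acta2 (−0.64 ± 0.23, 0.124) and Tagln (−0.62 ± 0.18, 0.0748) missed the threshold, and so did Bgn (0.45 ± 0.12, 0.052). Without both female arrays, whose Cux2 goes against the label, Thbs1, Acta2 and Tagln passed it (adjusted p = 0.00833, 0.0263 and 0.0414), which made 6 lower calls, and Mmp2 was then also called higher. The same calls arose without either female array alone. Without either male day 5 array none of the 35 was called, without array 1 of day 3 only Vim, and without array 2 only Vim and Reln. The share of all genes called in this contrast when a male array is left out is not given here. Without that share, these losses cannot be read as a result about the 35 genes. The male day 5 and day 3 arrays lie on different slides, so that slide and day cannot be told apart.

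**Figure D3:**
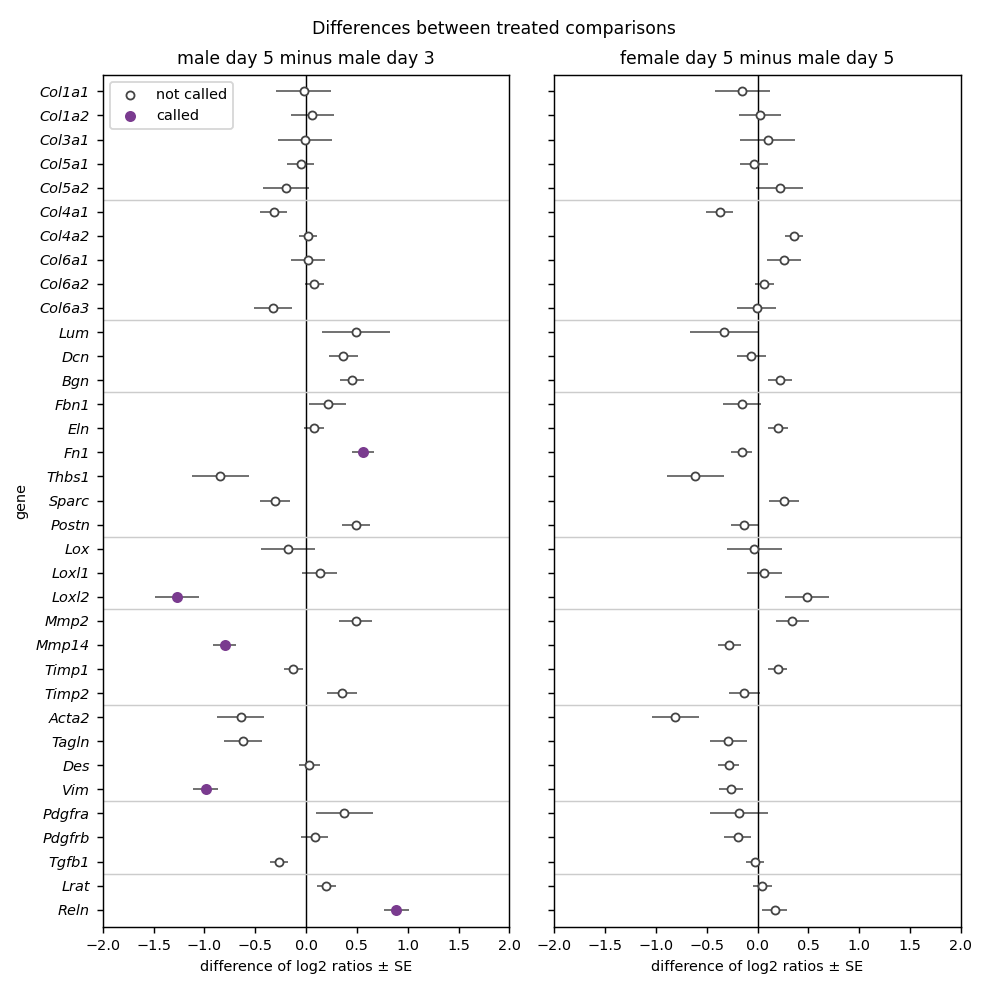
Difference of log2 ratios for each gene, male day 5 minus male day 3 (left) and female day 5 minus male day 5 (right), with standard errors as bars and filled symbols where called. Loxl2, Vim and Mmp14 lie left of 0 and Reln and Fn1 right of it in the left panel, and no gene is filled in the right panel.

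The female and male responses at day 5 were compared in the same way. By limma 0 of the 35 differed, where 0.036% and 0.171% of all genes were called higher and lower. Of the 35, 5 had an unadjusted p under 0.05, and the share of all genes under it was not counted. Acta2 had the largest difference, −0.81 ± 0.23 in females minus males (unadjusted p = 0.0107 and adjusted p = 0.247 from limma). Col4a2 stood at 0.36 ± 0.09 and Col4a1 at −0.37 ± 0.13 (limma adjusted p = 0.197 and 0.376), with Des at −0.28 ± 0.10 and Mmp14 at −0.28 ± 0.11. The median standard error of a difference was 0.14, so that small differences between the sexes are not detectable here. Sex and slide cannot be told apart in this contrast either. Cux2 itself went opposite ways, at 0.61/0.60 on the male arrays and −0.58/−0.65 on the female ones with the brighter probe. The 2 comparisons therefore do not differ in sex and slide alone, and the absence of calls does not show equal responses to Cux2.

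The 2 female arrays were both above 0 for 33 of the 35 genes, with Acta2 and Des on either side of 0, and differed in size. Array 1 gave the larger ratio for 34 of the 35 genes, where it did for 53.8% of all genes, with medians of 0.93 and 0.55. Col1a1 stood at 2.23/1.20, Lum at 2.02/0.80 and Loxl2 at 1.79/0.91 on arrays 1 and 2. The exception was Lrat, at 0.27/0.35. On the other comparisons array 1 was larger for 23 genes (untreated), 26 (male day 5) and 16 (male day 3). The female pools were the smallest of the study, with 3 or 4 mice each. Smooth muscle (0.47 and −0.43), cholangiocyte (0.76 and 0.26) and exocrine pancreas markers (4.09 and −0.63) were also higher on array 1 of the female comparison than on array 2, and their part in the matrix values was not tested.

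**Figure D4:**
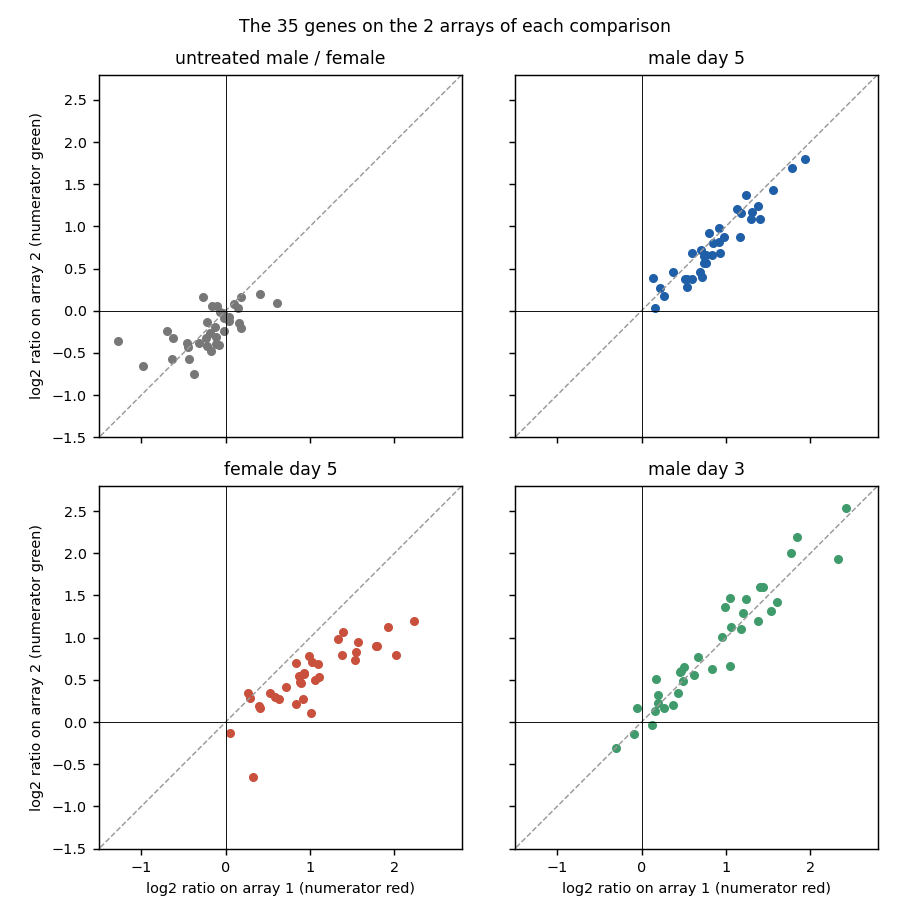
Log2 ratio of each of the 35 genes on array 1 (horizontal) and array 2 (vertical) of each comparison, with the line of equal values dashed. Male day 5 and day 3 lie along the line, and 34 of 35 genes lie below it in the female comparison.

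In untreated livers the genes lower in males were Mmp14, Pdgfra, Postn, Dcn, Lrat, Reln, Col5a1 and Fn1. Their ratios ran from −0.81 ± 0.20 for Pdgfra to −0.33 ± 0.07 for Fn1. With the brightest probes all 8 lay below 0 on both arrays, as 23 of the 35 genes did, where 31.5% of all genes did. Further probes of Mmp14 (0.06/−0.32), Postn (0.01/−0.03) and Col5a1 (−0.02/0.05) did not. Those of Pdgfra, Dcn, Lrat and Fn1 did, and Reln had no further kept probe. Each of these 8 was called higher with Adeno-Cux2 in males at day 5, as were 32 of the 35 genes, so this does not set the 8 apart. Among the other fibrillar collagens, Col1a1, Col1a2, Col3a1 and Col5a2 read −0.23/−0.32, −0.22/−0.42, 0.18/−0.20 and 0.04/−0.12 in untreated livers without a call (adjusted p = 0.396, 0.214, 0.988 and 0.896).

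Matrix genes outside the 35 were read from 6 further lists. Over all genes, 13.9%, 12.8% and 23.7% were called higher in male day 5, female day 5 and male day 3. The shares called lower were 4.95%, 6.31% and 20.3%. Of 12 basement membrane genes 8 were called higher and 1 lower in male day 5, 10 and 1 in female day 5, and 8 and 1 in male day 3 (medians 0.57, 0.65 and 0.78). Nid1 (nidogen, which links laminin to type IV collagen) rose most, with 3.43/3.07 at day 3, 2.03/1.89 in males and 1.71/1.49 in females at day 5. Lama3, a laminin chain, was lower at day 3 (−1.79/−2.09) and higher in untreated males (2.13/2.20). Of 16 collagen processing enzymes 8, 9 and 12 were higher in males at day 5, females and males at day 3, and 1 lower in each. They include Pcolce, which helps to trim procollagen (1.04 ± 0.07, 1.18 ± 0.07 and 1.34 ± 0.07), and Serpinh1, the collagen chaperone (1.02 ± 0.18, 1.14 ± 0.18 and 1.40 ± 0.18).

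Of 20 further matrix proteases and inhibitors 13, 11 and 13 were higher in the 3 treated comparisons and 0, 0 and 1 lower. Mmp12, the elastase of macrophages, read 1.96/1.82 in males at day 3 and 1.59/2.19 in males at day 5, and 0.80/0.39 without a call in females. Of 24 genes of transforming growth factor beta and platelet-derived growth factor signalling 14, 9 and 12 were higher and 0, 0 and 2 lower, with Tgfbr2, the receptor that binds the ligand first, at 0.81 ± 0.11, 1.01 ± 0.11 and 1.31 ± 0.11. Of 25 matrix glycoproteins and proteoglycans 11, 13 and 8 were higher and 0, 0 and 3 lower, led at day 3 by Efemp2, an elastic fibre protein (1.45 ± 0.07). Of 11 other collagens 6, 5 and 6 were higher and 0, 1 and 4 lower. Col18a1, a collagen of basement membranes and of hepatocytes, was lower at day 3 (−1.17/−1.19).

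Markers of other cells were read in the same comparisons. Calls higher over all genes were 13.9% in males at day 5, 12.8% in females and 23.7% at day 3. Calls lower were 4.95%, 6.31% and 20.3%, and some lists lie near these shares. Of 13 macrophage markers 12 were higher in males at day 5 (median 1.25), 10 in females (0.82) and 4 at day 3, where 5 were lower (medians by array 0.23 and −0.06). One of the 13 had no value on array 2 of female day 5. Of 9 neutrophil markers 8 were higher in each treated comparison, with medians of 2.43, 1.73 and 1.48. Of 7 natural killer cell markers 7, 4 and 7 were higher. These leukocytes carry Vim, Mmp14, Fn1 and Tgfb1 too, and their part in those values was not tested. Of 10 endothelial markers 5, 4 and 4 were higher and 0, 0 and 2 lower. Of 9 markers of portal fibroblasts and mesothelium 3, 4 and 3 were higher, with medians of 0.19, 0.17 and 0.22. Of 12 hepatocyte markers 4, 5 and 1 were higher, and 7 were lower at day 3, with a median of −0.31. Of 8 cholangiocyte markers 3, 5 and 3 were higher and 1 lower at day 3. Of 10 skeletal muscle markers 1 was higher in males at day 5 and 7 lower in females, and of 6 exocrine pancreas markers none was called. In untreated livers the same lists gave 5 lower calls for macrophages, 4 for neutrophils, 2 for natural killer cells, 2 for endothelium, 1 for hepatocytes and 1 higher call for cholangiocytes. Over all genes 6.15% were called lower and 4.94% higher there.

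**Figure D5:**
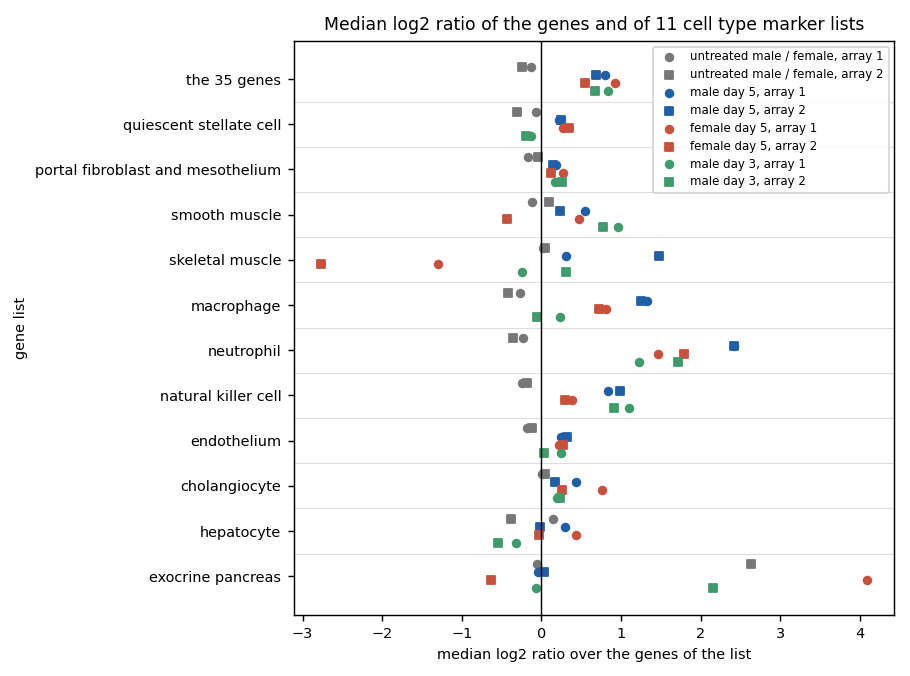
Median log2 ratio over the 35 genes and over each of 11 cell type marker lists (rows) on each array, with circles for array 1 and squares for array 2. The 35 genes lie between 0.55 and 0.93 on the 6 treated arrays, macrophage markers are near 0 at day 3, and skeletal muscle markers are far below 0 on both female arrays.

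The 35 genes were read by 59 kept probes, with several for 19 genes and 1 for the other 16. Among the genes with several probes that were called, all probes shared the sign of the ratio in 14 of 17 in males at day 5, 15 of 16 in females and 13 of 14 at day 3. The exceptions at day 5 in males were Col3a1, Col5a1 and Postn, whose further probes are dim. Probe intensities are not comparable between probes, and no level of one gene is set against that of another.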

How the data were processed

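Liver RNA pools were compared on 8 two-colour arrays, 2 per comparison with the dyes reversed. The deposited intensity values are each spot's median foreground and local background per channel, not normalised, per the file headers, written by Agilent's Feature Extraction software (release 9.5.3.1 for the slide that held the untreated and male day 5 arrays, 10.7.1.1 for the slide of female day 5 and male day 3). The deposited LogRatio is the software's log10 ratio of red to green after its own background and dye correction, per the file headers, and was used as an alternative. The deposited series matrix equals it with the sign turned on array 2, to within 5e-06. Untreated females number 11 and experiments 3 in the series text, against 10 and 4 in the sample labels used here, and the female arrays state a purpose that names males.

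Background was corrected by normexp with an offset of 50 and ratios were normalised by loess within each array (limma 3.58.1, R 4.3.3, data.table version 1.17.8), with control and outlier spots at weight 0. Of 41174 probes, 33329 were kept because a channel was well above background on both arrays of some comparison; the brightest kept probe stood for each of 22220 genes. Genes were named through RefSeq annotation on GRCm38, and probe positions are on mm8, as the files give them. One limma model held a coefficient per comparison and a dye term, with 3 residual and 3.63 prior degrees of freedom and Benjamini-Hochberg adjustment over all genes; differences are contrasts in it. Replicate number and dye orientation are the same factor, so the dye term is also the replicate block; deviations of same-numbered arrays correlated at −0.0946 to 0.297 between comparisons. Each comparison has 2 arrays, but a gene's standard error pools the residual spread of all comparisons with the model's prior. The error is therefore the same in every comparison for a gene with a value on every array. It does not show the spread between a comparison's own arrays, which the values per array give. The 35 genes and all lists were chosen with earlier results of these data known. All 35 are named; values per array are given for those called in any comparison, and at most the 3 largest called genes of another list per comparison are named. A few genes of these other lists are not reported here by name.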

Additional observations from a re-analysis of the deposited data

Results flagged for a closer look

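Of the differences between comparisons, 5 passed the test, all between males at day 5 and males at day 3 (limma, adjusted over all genes), where 8.1% of all genes were called higher and 4.82% lower in that contrast. None of the 5 was called without either male day 5 array. Reln was higher at day 5 by 0.89 (adjusted p = 0.00777), with both male day 5 arrays above 0 and both day 3 arrays below. Fn1 was higher at day 5 by 0.56 (0.0186), and stood just below 0 on both day 3 arrays. Loxl2, Vim and Mmp14 had differences of −1.27, −0.99 and −0.80 (adjusted p = 0.0139, 0.00592 and 0.00885), with higher ratios at day 3 on every array. How many of all genes separate by array in this way was not counted. Macrophage markers had medians of 1.25 at day 5 and 0.10 at day 3, neutrophil markers 2.43 and 1.48, and hepatocyte markers 0.17 and −0.31; their part in these differences was not tested. The slides differ between the days as well and cannot be told apart from them.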

How the results depend on the processing

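Over 4060 alternative values of 210 results for single genes, 6 lost a call and turned sign, 273 lost a call with the sign kept and 65 gained one; 96 turned sign where neither value was called, and 0 were called in the opposite direction. All 6 came from the next brightest probe, an alternative chosen after the data were seen: Col5a1 in untreated livers (0.016), male day 5 (−0.14) and male day 3 (−0.13), Col3a1 (−0.018) and Postn (−0.012) in male day 5, and Fn1 in female day 5 (−0.061). That alternative also gave 2 higher and 3 lower calls in untreated livers with a median of −0.071, medians of 0.62 for male day 5 and 0.59 for male day 3, and 1 higher call at day 5 against day 3. Calls kept under every alternative numbered 5 of 32 in male day 5, 13 of 31 in female day 5, 17 of 27 in male day 3, and 0 of the 9 untreated calls and of the 5 between days.

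Without background subtraction 4 genes were lower in untreated males, and the medians of male day 5 and male day 3 were 0.59 and 0.54. With the software's log ratios 0 were higher and 2 lower in untreated males, 0 lower at day 3 and 0 higher at day 5 against day 3. Median centring gave 0 higher in untreated males, 0 lower at day 3 with a median of 0.91, and 1 higher at day 5 against day 3. The mean of kept probes gave 2 higher in untreated males and a median of 0.58 for male day 5. Without the replicate block, which is the dye term, 0 were higher in untreated males, and no other count moved by over 1.5 times. With the 2 arrays alone, untreated calls were 0 higher and 0 lower. Without both female arrays, also chosen after the data were seen, 0 were higher in untreated males and 6 lower at day 5 against day 3.

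With single arrays left out, in some cases leaving a comparison with 1 array that is assumed to vary like the others, calls ranged from 0 to 1 higher and 0 to 8 lower in untreated males. They ranged from 7 to 32 higher in male day 5, 15 to 32 in female day 5, 0 to 1 lower in male day 3, and 0 to 3 higher and 0 to 6 lower at day 5 against day 3. Calls over all genes also fell when an array of male day 5 or female day 5 was left out of its own comparison. The cause of these changes was not tested. Dim further probes lie close to background, which limits what their ratios can show.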
